A study of Homo sapiens with 6 samples.

Results

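ZEB1, the gene of its antisense RNA (ZEB1-AS1) and 8 coregulators through which the ZEB1 protein acts were followed in clones of the human line MiaPaCa2, derived from a pancreatic ductal adenocarcinoma. The 10 genes were the rows of the deposited count table whose symbol was ZEB1, ZEB1-AS1, CTBP1, CTBP2, SIRT1, SMARCA4, KDM1A, RCOR1, EP300 or KAT2B, out of 26334 symbols. All 10 were found, and all 10 had enough reads to enter the test. Their levels were set side by side in 3 clones carrying a CRISPR-Cas9 deletion of ZEB1 (ZEB1-KO) and 3 clones with wild-type ZEB1 (WT). Cells of both groups had been electroporated with a plasmid that makes Cas9 and GFP, pSpCas9-2A-GFP, which carried a guide RNA against ZEB1 for the ZEB1-KO clones only, and each clone was isolated by sorting GFP-positive cells. The clones were grown in DMEM with 10% serum, and 2000 cells per clone were lysed for SMART-Seq2, a protocol that amplifies cDNA of polyadenylated RNA without marking its strand. Each clone is a separate edited or control isolate, nothing in the labels ties clones of the 2 groups to each other, and no source used here gives the position of the deletion.

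ZEB1 is a transcription factor with zinc fingers near both ends that bind the E-box sequence CACCTG, and it drives the epithelial-mesenchymal transition by repressing epithelial genes. It has no enzymatic activity of its own and acts through partners. The CtBP proteins bind short motifs in ZEB1 and bring in the demethylase LSD1 (gene KDM1A), the scaffold CoREST (gene RCOR1) and histone deacetylases. The chromatin remodeller BRG1 (gene SMARCA4) and the deacetylase SIRT1 have also been described as ZEB1 corepressors, whereas the acetyltransferases p300 (gene EP300) and P/CAF (gene KAT2B) can turn ZEB1 complexes towards activation. ZEB1-AS1 is a long non-coding RNA transcribed away from the ZEB1 promoter on the other strand, described as a positive regulator of ZEB1.

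The start region of ZEB1 and ZEB1-AS1 is shown because their transcripts begin back to back, while the 2 genes differed in how far their counts were from the WT level. RefSeq promoter windows (GRCh38.p14, 250 bases before to 50 after a start) were matched by symbol for all 10 genes, in 24 windows. RefSeq lists 7 starts for ZEB1 and 2 for ZEB1-AS1. A start of ZEB1-AS1 lies 121 bases upstream of a start of ZEB1 and points the other way, so that their windows share 220 bases, and the other ZEB1-AS1 start lies 107 bases upstream of another ZEB1 start. In the sequences printed here capitals mark CACCTG or, on the opposite strand, its reverse complement CAGGTG, read 5′ to 3′ on the plus strand, along which ZEB1 is transcribed.
Bases before the most upstream ZEB1 start, chr10:31318167-31318416: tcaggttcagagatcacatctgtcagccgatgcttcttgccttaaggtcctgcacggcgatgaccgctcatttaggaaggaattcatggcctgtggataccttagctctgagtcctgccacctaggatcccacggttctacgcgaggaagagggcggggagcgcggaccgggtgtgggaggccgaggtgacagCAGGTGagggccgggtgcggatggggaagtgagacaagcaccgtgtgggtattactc
Bases before the ZEB1 start that faces ZEB1-AS1, chr10:31318966-31319124: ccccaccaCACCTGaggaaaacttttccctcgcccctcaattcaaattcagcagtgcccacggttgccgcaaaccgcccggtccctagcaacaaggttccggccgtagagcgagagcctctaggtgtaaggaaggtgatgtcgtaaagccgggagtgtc
The next match in the same window, chr10:31319121-31319146: tgtcgtaaacCAGGTGcggtggggag
The first stretch lies within an annotated exon of ZEB1-AS1 and has its match at position -57, counted from the ZEB1 start. The second lies wholly within annotated exonic sequence of ZEB1, and 97 of its bases are also exonic in ZEB1-AS1. The match of the third lies in an annotated untranslated stretch of ZEB1. The window of the start that faces ZEB1-AS1 has matches at positions -242, -85 and 34. Those at -85 and 34 are also the 2 matches of the ZEB1-AS1 window, at positions -41 and -159 from its start.

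Both letter strings were searched, which covers both strands, and no other motif was searched. A match stood in 4 of the 24 windows of the 10 genes (16.7%) and in 20.6% of all 35116 promoter windows. The 4 windows belonged to ZEB1 (2 of 7), ZEB1-AS1 (1 of 2) and CTBP1 (1, at base 3 after the start). A match is a description of the letters and no measure of binding.

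Levels are given as CPM, counts scaled to library size with TMM factors, which corrects for depth and not for gene length. Values of a group stand in the order of replicates 1, 2 and 3. Differences are log2 fold changes of ZEB1-KO over WT from edgeR's quasi-likelihood test over 13659 genes, with a 95% interval, and a call needs an adjusted p below 0.05. By that test 0 of the 10 genes were called, against 0.176% of all genes tested (0.0586% lower and 0.117% higher). At an unadjusted p below 0.05 there were 2, ZEB1 and CTBP2, both lower, against 17.7% of all genes (8.04% lower and 9.64% higher). DESeq2 and edgeR's likelihood ratio test each called the same pair lower. DESeq2 called 7.12% of genes (2.78% lower and 4.34% higher) and the likelihood ratio test 4.52% (1.76% lower and 2.75% higher). The authors' deposited table, also from a likelihood ratio test on these libraries, lists the same pair as lower, with 4.75% of its genes past 0.05 (1.92% lower). In 3 of the 10 genes (ZEB1, CTBP1 and CTBP2) the clones of the 2 groups did not overlap, which was close to the 23.6% of all genes tested (11.7% lower and 11.9% higher). In bulk RNA, fewer cells that express a gene and less RNA per cell cannot be told apart.

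**Figure D1:**
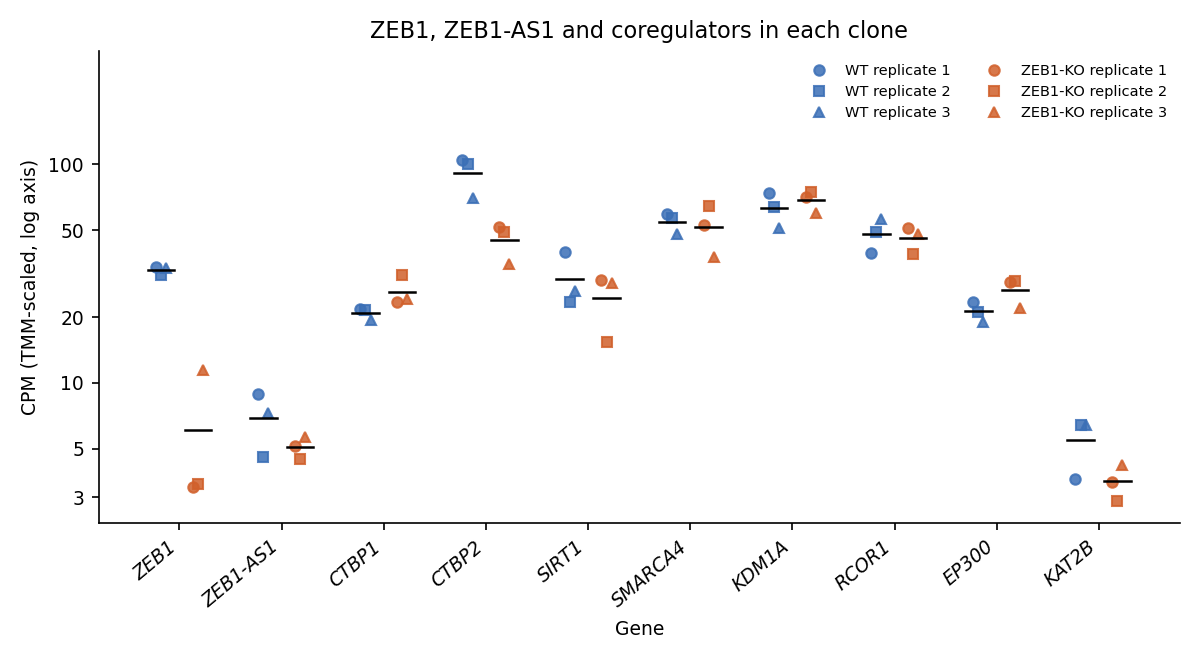
Level of each of the 10 genes in each clone, in CPM on a log axis. Blue marks are the 3 WT clones, orange marks the 3 ZEB1-KO clones, and black bars are group means; the 2 groups are apart for ZEB1, CTBP1 and CTBP2, and ZEB1-KO replicate 3 (11.5 CPM) is above the other ZEB1-KO clones for ZEB1.

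ZEB1 transcript was lower in each ZEB1-KO clone than in each WT clone, but it was present in all of them. Its level was 34.0, 31.2 and 33.6 CPM in the WT clones, the narrowest span of the 10 genes among WT clones, with a highest value 1.09 times the lowest. It was 3.34, 3.46 and 11.5 CPM in the ZEB1-KO clones, the widest span of the 10 genes, with a highest value 3.44 times the lowest. Expressed as a share of the WT mean, 10.1%, 10.5% and 34.9% of ZEB1 transcript were left in the ZEB1-KO clones. The log2 fold change of -2.43 (95% interval -3.55 to -1.31) was a 5.39-fold lower level and did not pass the threshold (adjusted p = 0.0930). Leaving out ZEB1-KO replicate 3 gave -3.27 for ZEB1, which passed (adjusted p = 0.0137), and over all alternatives the adjusted p ranged from 3.3e-05 to 0.278. Transcript counts do not tell whether protein remained, since it is not known which counted exons lie outside the deleted part.

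Most genes beside ZEB1 on its chromosome also had negative log2 fold changes, and none of them was called by the quasi-likelihood test. ZEB1-AS1, with a log2 fold change of -0.45, was not counted among these genes. Of the 10 nearest other tested genes, 5 on each side from SVIL to ITGB1, 7 were below 0. Their log2 fold changes ran from -0.95 to 0.84 around a median of -0.51, and 4 had an unadjusted p below 0.05. With 10 genes on each side the median was -0.38, against -0.0082 over all genes tested, 16 of the 20 were below 0 and 7 had an unadjusted p below 0.05. The log2 fold change of ZEB1 lay outside the range of the 10 nearest genes but inside that of the 20 nearest, -2.89 to 0.84, whose lowest value belonged to BAMBI, a pseudoreceptor that inhibits TGF-beta signalling. Relative to the WT mean, the median log2 CPM of these neighbours was 0.28, -0.17 and -0.016 in the WT clones and -0.46, -0.64 and -0.39 in the ZEB1-KO clones. ZEB1-KO replicate 3, which kept the most ZEB1 transcript, had neighbours at nearly the same level as ZEB1-KO replicate 1. Whether the neighbours' shift takes part in the lower ZEB1 level was not tested.

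ZEB1-AS1 stayed much closer to its WT level. It had 388, 149 and 180 counts across WT and 103, 181 and 181 across ZEB1-KO clones, or 8.89, 4.60 and 7.29 CPM against 5.14, 4.47 and 5.63 CPM. The groups overlapped, because WT replicate 2 was below 2 of the ZEB1-KO clones. ZEB1-KO replicates 1, 2 and 3 held 74.2%, 64.6% and 81.4% of the WT mean. The log2 fold change of -0.45 did not pass the test (95% interval -1.19 to 0.29, adjusted p = 0.499), an interval that leaves room for a level from 0.439 to 1.22 times that of WT clones.

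The difference between the sense and the antisense gene was examined with the ratio of their counts within each library, which no scaling factor touches. ZEB1 had 3.83, 6.79 and 4.61 counts per ZEB1-AS1 count in the WT clones, and 0.650, 0.773 and 2.04 in the ZEB1-KO clones. Every ZEB1-KO value was below every WT value, and the mean log2 ratio was 2.29 lower (4.89-fold; exact permutation test, two-sided p = 0.1, the smallest that 3 against 3 clones allow). The ratio was chosen after the values were seen. The gap of ZEB1 between the groups is wider than the whole span of ZEB1-AS1 over the libraries. The separation of the ratio and its p-value are therefore no added support. Without a strand in the library, reads from sequence that both genes cover cannot be assigned by strand. In the GENCODE 29 annotation the exons of the 2 genes share 366 bases, 4.23% of the exonic bases of ZEB1 and 9.55% of those of ZEB1-AS1. The annotation used for counting may differ from it.

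CTBP2, which encodes a CtBP corepressor and, from another start, the synaptic ribbon protein RIBEYE, showed the largest difference among the coregulators. Its level was 104, 100.4 and 69.9 CPM across WT and 51.8, 48.7 and 34.99 CPM across ZEB1-KO clones. The groups did not overlap, and replicate 3 was the lowest clone of each group. The log2 fold change of -1.02 (SE 0.25, 95% interval -1.59 to -0.45) was a 2.03-fold lower level with an adjusted p of 0.114, short of the threshold. DESeq2 called it lower with a log2 fold change of -1.01 (adjusted p = 0.0134), and edgeR's likelihood ratio test called it with an adjusted p of 0.0313. The authors' deposited table, also from a likelihood ratio test on these libraries and so no separate evidence, lists -1.03 on the log2 scale (adjusted p = 0.0314). Across the alternatives its log2 fold change stayed between -1.18 and -0.70, with adjusted p-values from 0.0134 to 0.274. The 10 tested genes nearest to CTBP2 had a median of -0.13 on the same scale, with 5 of the 10 negative. They ran from -1.52 to 0.47, a range that includes the value of CTBP2, and 2 had an unadjusted p below 0.05. GENCODE 29 lists 8 genes named as pseudogenes of CTBP2, so that reads of the parent gene could be split or shared, depending on the counting.

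CTBP1, which encodes the other CtBP protein, lay on the opposite side. It was at 21.7, 21.5 and 19.3 CPM across WT and 23.4, 31.0 and 24.1 CPM across ZEB1-KO clones. All ZEB1-KO clones were above all WT clones, but the log2 fold change of 0.33 did not pass the test (95% interval -0.18 to 0.83, adjusted p = 0.471). An antisense gene annotated on CTBP1, CTBP1-AS, had 7 to 33 counts per library and shares 810 exonic bases with it in GENCODE 29.

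The ratio of CTBP2 to CTBP1 separated the groups without overlap. On the scale of the deposited TPM, which is per length, CTBP2 stood at 2.08, 2.02 and 1.56 times CTBP1 in the WT clones. In ZEB1-KO replicates 1, 2 and 3 it stood at 0.957, 0.680 and 0.628 times CTBP1. CTBP2 was thus the higher of the pair in each WT clone and the lower in each ZEB1-KO clone. The mean log2 ratio was 1.33 lower in ZEB1-KO clones, a 2.52-fold difference (exact permutation test, two-sided p = 0.1, the smallest that 3 against 3 clones allow), and between 1.21 and 1.52 lower without any one library. This ratio too was chosen after the values were seen. On the TPM scale CTBP2 and CTBP1 each separate the groups, in opposite directions. The separation of their ratio and its p-value are therefore no added support. Which of the pair is higher in a clone depends on the gene lengths behind the TPM values, and a single length per gene would leave the difference between groups as it is.

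**Figure D2:**
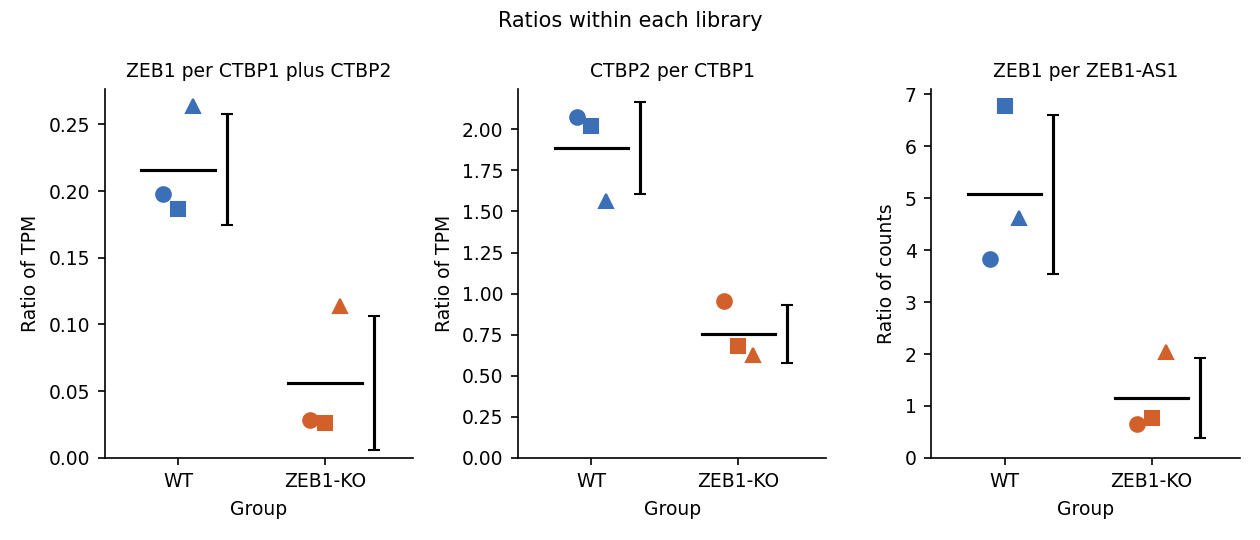
Ratios within each library, with WT clones in blue and ZEB1-KO clones in orange, group means as horizontal bars and the SD (n = 3) as error bars. ZEB1 per summed CTBP1 and CTBP2 and CTBP2 per CTBP1 are ratios of deposited TPM, and ZEB1 per ZEB1-AS1 is a ratio of counts; in each panel all ZEB1-KO clones are below all WT clones.

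The ratio of ZEB1 to the CtBP transcripts was taken per library. Since ZEB1 itself separates the groups, its separation is no added support. ZEB1 TPM per summed TPM of CTBP1 and CTBP2 was 0.198, 0.187 and 0.264 in the WT clones and 0.0284, 0.0258 and 0.114 in the ZEB1-KO clones. The mean was 0.216 ± 0.0415 in WT and 0.0560 ± 0.0501 in ZEB1-KO clones (SD, n = 3 each). The mean log2 ratio differed by -2.29 (exact permutation test, two-sided p = 0.1, the smallest possible), and it ranged from -2.98, without ZEB1-KO replicate 3, to -1.91, without ZEB1-KO replicate 2, when single libraries were left out. ZEB1-KO replicate 3 was again above the other ZEB1-KO clones and below all WT clones.

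KDM1A and RCOR1, the LSD1 demethylase and its CoREST scaffold, showed no detectable difference. KDM1A was at 73.5, 63.8 and 51.2 CPM across WT and 70.5, 74.8 and 59.7 CPM across ZEB1-KO clones. Its clones overlapped, with a log2 fold change of 0.12 (95% interval -0.37 to 0.61, adjusted p = 0.800). RCOR1 was at 39.1, 48.8 and 56.2 CPM across WT and 51.0, 38.7 and 47.8 CPM across ZEB1-KO clones. All ZEB1-KO clones of RCOR1 but replicate 2 lay within the range of the WT clones, with a log2 fold change of -0.068 (95% interval -0.58 to 0.44, adjusted p = 0.898), the smallest of the 10 genes, and its sign turned with the scaling. These intervals allow levels from 0.773 to 1.53 times WT for KDM1A and from 0.669 to 1.36 times WT for RCOR1.

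SMARCA4, the ATPase BRG1 of the SWI/SNF remodelling complex, was at 59.3, 56.5 and 47.8 CPM across WT and 52.5, 64.4 and 37.7 CPM across ZEB1-KO clones. The highest and the lowest clone both belonged to the ZEB1-KO group. Its log2 fold change was -0.082 (95% interval -0.64 to 0.48, adjusted p = 0.886), with a sign that also turned with the scaling.

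SIRT1, an NAD-dependent deacetylase, varied between clones of the same group more than between the groups. It was at 39.6, 23.4 and 26.5 CPM across WT and 29.4, 15.4 and 28.6 CPM across ZEB1-KO clones. WT replicate 1 was the highest and ZEB1-KO replicate 2 the lowest, and the other 4 clones lay between 23.4 and 29.4 CPM. The log2 fold change of -0.29 did not pass the test (95% interval -1.03 to 0.46, adjusted p = 0.676). The 10 tested genes nearest to SIRT1, which lies on the same chromosome as ZEB1 and CTBP2, had a median log2 CPM of 0.28 above the WT mean in WT replicate 1 and -0.67 in ZEB1-KO replicate 2, the same clones that were highest and lowest for SIRT1. Their part in the SIRT1 levels was not tested. The neighbours of CTBP2 were likewise at 0.31 in WT replicate 1 and at -0.81 in ZEB1-KO replicate 2, where CTBP2 itself was not the lowest.

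EP300 and KAT2B, the acetyltransferases, lay on opposite sides. EP300, the gene of p300, was at 23.6, 21.1 and 19.0 CPM across WT and 28.9, 29.1 and 22.01 CPM across ZEB1-KO clones. Only ZEB1-KO replicate 3 lay within the WT range, and the log2 fold change was 0.33 (95% interval -0.19 to 0.85, adjusted p = 0.479). KAT2B, the gene of P/CAF, was the lowest of the 8 coregulators, at 3.64, 6.45 and 6.401 CPM across WT and 3.54, 2.89 and 4.23 CPM across ZEB1-KO clones. WT replicate 1 of KAT2B lay among the ZEB1-KO clones, and the log2 fold change of -0.63 did not pass the test (95% interval -1.41 to 0.16, adjusted p = 0.373). Of the 8 coregulators, 3 had a positive and 5 a negative log2 fold change, against 49.4% positive among all genes tested.

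**Figure D3:**
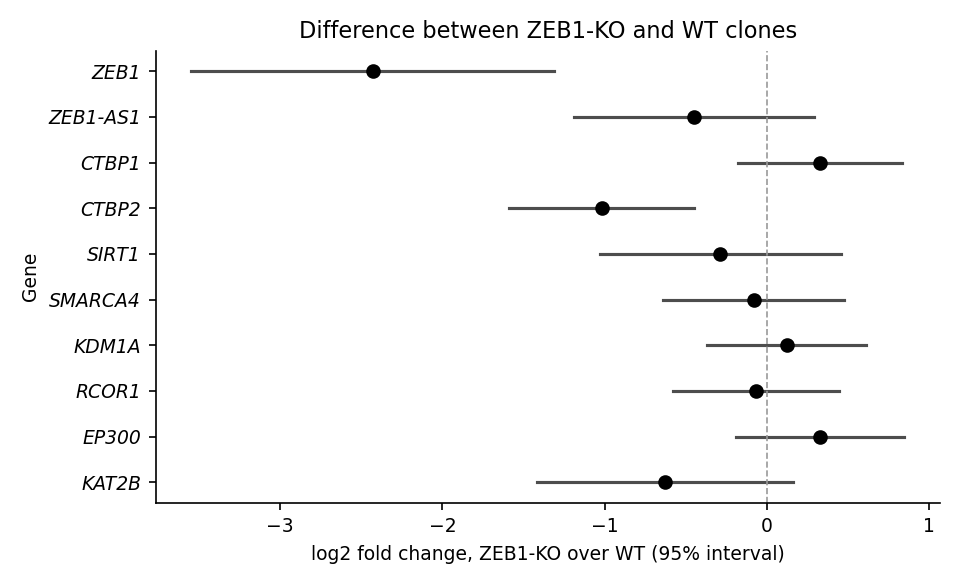
Log2 fold change of ZEB1-KO over WT for the 10 genes (points) with its 95% interval (lines), from edgeR's quasi-likelihood fit. The intervals of ZEB1 (-3.55 to -1.31) and CTBP2 (-1.59 to -0.45) lie below 0 before adjustment over all genes, and those of the other 8 include 0.

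Levels of different genes can be set side by side on the deposited TPM scale, which covers 9 of the 10 genes and does not list ZEB1-AS1. In WT clones KDM1A was highest, at 28.8 ± 7.04 TPM, followed by CTBP2 at 22.6 ± 5.54 TPM (SD, n = 3 each). SMARCA4 (13.2 TPM), CTBP1 (11.9 TPM), RCOR1 (11.7 TPM) and SIRT1 (9.95 TPM) followed with overlapping clones. ZEB1 took the seventh place with 7.32 ± 0.963 TPM, above EP300 at 3.44 ± 0.629 TPM and KAT2B at 1.59 ± 0.366 TPM. In WT clones the ranges of neighbours in this order overlapped except between CTBP2 and SMARCA4, ZEB1 and EP300, and EP300 and KAT2B.

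In ZEB1-KO clones KDM1A was again highest, at 37.7 ± 6.32 TPM, and its clones did not overlap those of CTBP1, the next at 18.1 ± 4.25 TPM. CTBP2, at 13.5 ± 2.96 TPM, stood in the fifth place after the second in WT, behind SMARCA4 (15.1 TPM) and RCOR1 (13.5 TPM), though its clones overlapped theirs. ZEB1, at 1.61 ± 1.19 TPM, overlapped KAT2B at 1.25 ± 0.182 TPM, and both were below EP300 at 5.21 ± 0.988 TPM. The TPM values are not centred between the groups. The median log2 fold change over all genes was 0.24 higher on log2 of TPM plus 1 than in the count fit, so that a TPM difference of that size between groups was shared by the median gene.

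**Figure D4:**
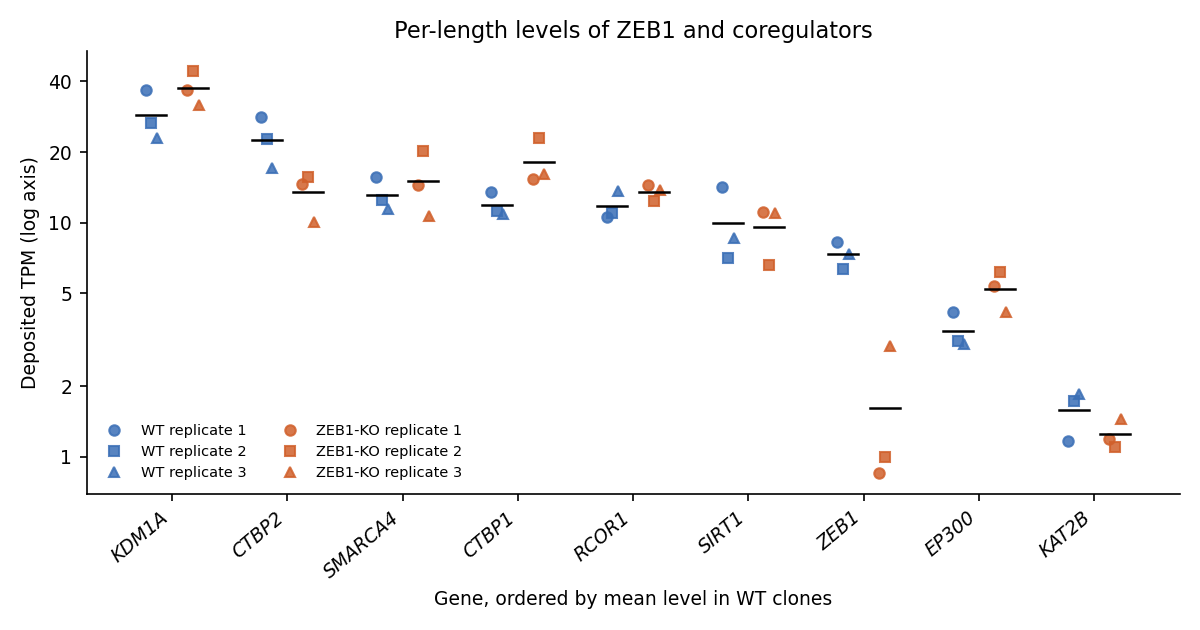
Deposited TPM of the 9 listed genes in each clone on a log axis, in the order of their mean in WT clones, with blue marks for WT, orange marks for ZEB1-KO and black bars for group means. KDM1A is highest in both groups, and ZEB1 has a mean of 7.32 TPM in WT and 1.61 TPM in ZEB1-KO clones, where it is beside KAT2B.

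The genes whose profile over the 6 libraries was most like that of ZEB1 were sought among 8704 genes with a mean of at least 5 CPM. CD47, a surface signal that inhibits phagocytosis, had the highest Pearson correlation of log2 CPM with ZEB1 (r = 0.997), followed by REV1, a DNA polymerase of translesion synthesis (0.995), PPIG, a cyclophilin of nuclear speckles (0.995), TXNL4A, a spliceosome component (0.991), and NCEH1, a cholesterol ester hydrolase (0.989). These correlations over 6 libraries of 2 groups describe the profile only, and 80 genes had an r above 0.95. All 5 had similar levels in the WT clones and their highest ZEB1-KO value in replicate 3, as ZEB1 had. CD47 was at 88.6, 90.7 and 92.4 CPM across WT and 38.7, 37.3 and 64.1 CPM across ZEB1-KO clones, with a log2 fold change of -0.95 (adjusted p = 0.123, and 0.0332 with DESeq2). NCEH1 was at 117, 113 and 121 CPM across WT and 42.0, 37.5 and 83.4 CPM across ZEB1-KO clones, with a log2 fold change of -1.11 (adjusted p = 0.136, and 0.0336 with DESeq2). REV1, PPIG and TXNL4A had log2 fold changes of -0.23, -0.52 and -0.40. Among the other 9 genes of the set, KAT2B (0.741), CTBP2 (0.696) and ZEB1-AS1 (0.617) had the highest r with ZEB1, and EP300 (-0.881) and CTBP1 (-0.787) the lowest.

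The close paralogs of the 10 genes were examined because they encode related proteins. ZEB2, the paralog of ZEB1, had 2, 1 and 3 counts across WT and 0, 2 and 1 across ZEB1-KO clones, at or under the floor of 3 counts (0.0687 to 0.150 CPM), where this depth could not show a difference. RCOR2 had 0 counts in each WT library against 2, 5 and 0 for ZEB1-KO, and it was not tested. SMARCA2, which encodes the alternative SWI/SNF ATPase BRM, had 16, 22 and 8 counts across WT and 2, 0 and 21 across ZEB1-KO clones, and did not pass the test (adjusted p = 0.700). KDM1B, RCOR3 and CREBBP, the paralog of EP300, had log2 fold changes of 0.50, 0.33 and 0.14 and overlapping groups. KAT2A, the paralog of KAT2B, averaged 14.3 ± 2.52 CPM (SD, n = 3) over WT and 22.8 ± 6.31 CPM over ZEB1-KO clones, with groups that did not overlap and a log2 fold change of 0.68 (adjusted p = 0.255). KAT2B had the opposite sign.

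The complexes around these genes were described with 6 lists of partners. Together 85 of 91 listed genes in the count table were tested, 44 with a positive and 41 with a negative log2 fold change and a median of 0.097, against -0.0082 over all genes. The quasi-likelihood test called 0 of the 85, with 22 (25.9%) at an unadjusted p below 0.05, beside 17.7% of all genes. DESeq2 called 5 (KAT5 and KAT7 higher, ZNF217, PBRM1 and ATM lower), which is 5.95% of the 84 with an adjusted p and less than its 7.12% of all genes. The likelihood ratio test called 3 (3.53%), beside 4.52% of all genes. In 26 (30.6%) the groups did not overlap, beside 23.6% of all genes. By list these were 3 of 10 for LSD1 and CoREST, 3 of 14 for CtBP and 8 of 16 for SWI/SNF. There were 6 of 23 for acetyltransferases, 3 of 9 for sirtuins and 3 of 13 for ZEB1 partners. The shares of all genes, 17.7% and 23.6%, also belong beside the counts of each list that follow.

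Partners of LSD1 and CoREST had 8 of 10 tested members above 0 and a median of 0.43, with 2 at an unadjusted p below 0.05, both higher. HDAC1, a deacetylase of the CoREST complex, was at 107.9, 85.3 and 60.2 CPM across WT and 123, 156 and 124 CPM across ZEB1-KO clones, with no overlap and a log2 fold change of 0.67 (adjusted p = 0.221). HDAC2, its paralog, had a log2 fold change of 0.47 (adjusted p = 0.290), and GSE1, a CoREST-associated protein, had 0.71 (adjusted p = 0.174), both also without overlap. Partners and modifiers of CtBP had 7 of 14 members above 0 and a median of 0.048, with 2 higher and 2 lower at an unadjusted p below 0.05. ZNF217, a zinc-finger protein that binds CtBP and CoREST, was at 156, 146 and 107 CPM across WT and 47.9, 54.9 and 91.1 CPM across ZEB1-KO clones. Its log2 fold change of -1.07 was called by DESeq2 (adjusted p = 0.0284) but not by the quasi-likelihood test (adjusted p = 0.128). EHMT1 and EHMT2, which encode the paired H3K9 methyltransferases GLP and G9a of the CtBP complex, had log2 fold changes of opposite sign, -0.84 (adjusted p = 0.171) and 1.08 (adjusted p = 0.220), while TGIF1, a homeodomain repressor, had -0.12.

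SWI/SNF subunits had as many tested members above 0 as under it, 8 of 16, and a median of 0.021. At an unadjusted p below 0.05 there were 4 higher and 3 lower, beside 9.64% and 8.04% of all genes. The groups did not overlap in 8 of the 16, beside 23.6% of all genes. PBRM1 and BRD7, subunits of the PBAF form of the complex, had log2 fold changes of -0.77 (adjusted p = 0.128, and 0.0411 with DESeq2) and -0.85 (adjusted p = 0.144), whereas BRD9, of the non-canonical form, had 0.82 (adjusted p = 0.170). ACTL6A and SMARCE1, the subunits with the highest levels, had 0.11 and 0.047. Acetyltransferases and their complexes had 14 of 23 members above 0 and a median of 0.20, with 5 higher at an unadjusted p below 0.05. KAT5 (TIP60) was low, with 56, 14 and 20 counts across WT and 50, 151 and 69 across ZEB1-KO clones, and a log2 fold change of 1.72 (adjusted p = 0.131, and 0.0205 with DESeq2). KAT7 (HBO1) and TADA1, a SAGA subunit, had log2 fold changes of 0.71 (adjusted p = 0.134, and 0.0452 with DESeq2) and 0.75 (adjusted p = 0.144), and SUPT7L and USP22, also of SAGA, had 0.60 and 0.14.

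Sirtuins and regulators of SIRT1 had 5 of 9 tested members above 0 and a median of 0.097, with 1 higher and 1 lower at an unadjusted p below 0.05. These were the tubulin deacetylase SIRT2, with a log2 fold change of 1.06 (adjusted p = 0.207), and the mitochondrial SIRT4, with -1.08 (adjusted p = 0.225). CCAR2, an inhibitor of SIRT1, had 0.56 and RPS19BP1, an activator, had -0.11. NAMPT, which makes the NAD precursor that sirtuins use, varied within each group, from 170 to 776 CPM in WT and from 223 to 661 CPM in ZEB1-KO clones. Partners of ZEB1 and genes that set its stability had 2 of 13 tested members above 0 and a median of -0.20, with 2 lower at an unadjusted p below 0.05. ATM, a DNA damage kinase that phosphorylates and stabilizes ZEB1, was at 27.9, 28.1 and 32.3 CPM across WT and 15.9, 13.6 and 15.7 CPM across ZEB1-KO clones. The adjusted p of ATM was 0.0994 at a log2 fold change of -0.96, and DESeq2 called it lower (adjusted p = 0.0054). YAP1, a co-activator that binds ZEB1, had a log2 fold change of -0.96 (adjusted p = 0.182), SIAH2, a ubiquitin ligase, had 0.55, and SMAD2 and DNMT1 had -0.18 and -0.30.

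**Figure D5:**
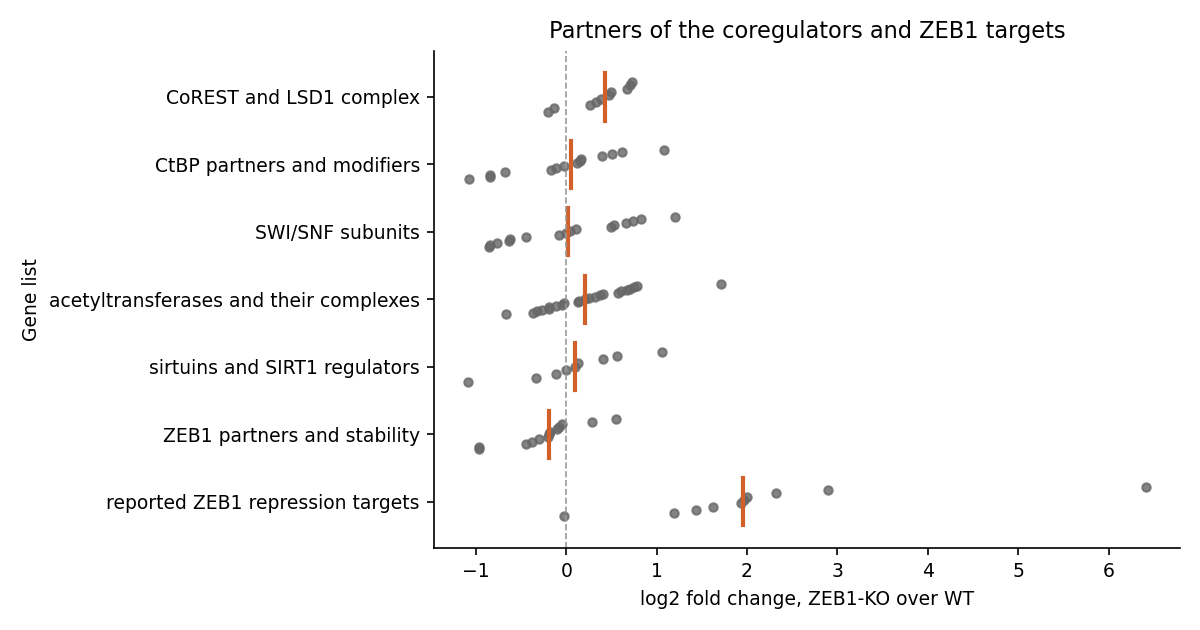
Log2 fold change of ZEB1-KO over WT for each tested gene (grey points) of the 6 lists of partners and the list of reported ZEB1 repression targets, with the median of each list as an orange bar. Medians of the partner lists lie between -0.20 and 0.43, and that of the tested targets is 1.95; the point farthest to the right is CDS1, whose fitted value rests on 8 counts in WT.

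Genes reported as repressed by ZEB1 through these corepressors were examined because the complex acts on them. Of 20 in the count table only 10 had enough reads to be tested, 9 of them above 0, and a gene that is nearly silent in WT clones can enter the test only through the ZEB1-KO clones, so that the count and the median of 1.95 support nothing by themselves. None of the 10 passed the quasi-likelihood test, and 7 had an unadjusted p under 0.05, beside 17.7% of all genes. DESeq2 called 7 of the listed genes, beside 7.12% of all genes. The limit set by nearly silent genes holds for these counts too, so they are no added support. INADL, a polarity scaffold, was at 7.03, 8.88 and 4.46 CPM across WT and 25.7, 30.0 and 25.99 CPM across ZEB1-KO clones (adjusted p = 0.0588). CDS1, a phospholipid enzyme, had 0, 8 and 0 counts across WT and 188, 191 and 248 across ZEB1-KO clones (adjusted p = 0.0621). SHROOM3, an apical constriction protein, had 41, 122 and 696 counts across WT and 1001, 2328 and 1810 across ZEB1-KO clones (adjusted p = 0.265). LLGL2 had a log2 fold change of 1.93 (adjusted p = 0.0621). The tested targets had no common direction between ZEB1-KO replicate 3, with 34.9% of ZEB1 transcript left, and replicate 1, with 10.1% left. INADL (25.99 against 25.7 CPM), LLGL2 (8.37 against 7.63) and SHROOM3 (56.3 against 49.9) were as high or higher in replicate 3. CDS1 was lower (7.72 against 9.38 CPM). ESRP1, OVOL2 and PKP3 had fewer counts there (3, 35 and 43 against 12, 55 and 47), though that library was larger. MYO5B, MARVELD2 and MARVELD3 had more counts (687, 287 and 26 against 189, 166 and 16), which are not scaled for depth. Since 3 counts stood for 0.0934 CPM in replicate 3 and 0.150 CPM in replicate 1, those of MARVELD2 and MARVELD3 show no clear difference in level. The part of the ZEB1 transcript left was not tested. CDH1, the E-cadherin gene and a classical target, had 0 to 4 counts in every library.

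Total counts ranged from 18909305 to 42876693 per library, and amplified reads without molecular identifiers are not independent molecules, so floors cover counting error only. The epithelial tumour markers KRT8, KRT18 and KRT19 and the mesenchymal VIM were abundant in every library, and the summed level of that list was 5933 to 6768 CPM in WT and 5406 to 7215 CPM in ZEB1-KO clones, while KRT7 had at most 25 counts. Within that list VIM had 75150 to 165051 counts in WT and 26893 to 88064 in ZEB1-KO libraries, and KRT8 had 21602 to 31425 and 32710 to 83839. These counts are not scaled for depth, so overlap or separation of their ranges is not one of levels. DESeq2 and the likelihood ratio test, which scale for depth, each called VIM lower and KRT8 higher, so that the sum hides opposite differences. The quasi-likelihood test called neither. Blood markers summed to 0.0810 to 0.733 CPM in WT and 0.0988 to 0.898 CPM in ZEB1-KO clones, with 3 of 6 at 0 in every library. Fibroblast and endothelial markers summed to 0.203 to 0.962 CPM and 0.593 to 3.24 CPM, with DCN and LUM at 0 throughout. These reads came largely from 2 endothelial markers. CDH5 had 24, 3 and 1 counts across WT and 59, 1 and 22 across ZEB1-KO clones. PECAM1 had 16, 20 and 4 against 4, 23 and 10. Markers of acinar and islet cells reached at most 3 counts in any library.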

How the data were processed

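RNA of 3 WT and 3 ZEB1-KO clones was measured in 6 libraries, grouped by their titles. The authors deposited raw counts for 26334 symbols, TPM values for 11013 of them, which sum to 1000000 in each library, and a results table for the same genes that holds log2 values (fold change and mean CPM), the score of a likelihood ratio test, the p-value and its adjusted form, per the file headers. TopHat2 2.1.0, HTSeq 0.6.1 and edgeR 3.2.2 with hg19 and GRCh37 are named in the submitters' processing notes. Neither their settings nor the gene filter or lengths behind the TPM are stated.

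The deposited counts were fitted with edgeR 4.0.16 in R 4.3.3 (filterByExpr with a minimum count of 10 and total of 15, TMM factors, group as the only term, glmQLFit and glmQLFTest, two-sided, Benjamini-Hochberg over 13659 genes, threshold 0.05). Intervals (95%) come from the F statistic with 4 residual and 4.35 prior degrees of freedom. Log2 CPM for correlations has a prior count of 2. No library was a copy of another (chi-square between 2 libraries of a group, divided by the number of genes, 127 or more). Alternatives used other scaling (RLE, upper quartile, library size), other filters, DESeq2 1.42.0, the likelihood ratio test, limma 3.58.1 (voom, or log2 of TPM plus 1 or 0.1, with or without a minimum mean TPM of 1), the replicate number as a block and each library left out. The fit was tested on simulated data. Of the 13659 symbols tested, 13341 matched RefSeq genes (GRCh38.p14), used for gene order only.

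The genes studied, the lists and the tests were chosen with earlier results of these data known. Other genes were named by rule: 7 paralogs, the 2 most abundant and the 3 of smallest p in each list, any call, and the 5 most like ZEB1. Antisense genes, CDH1, other targets, markers, BAMBI and the genes that bound the neighbours of ZEB1 were named outside that rule, after their values were seen, as were the 5 calls of DESeq2. Clones may differ in ways the labels do not record, and p-values measure the spread between these clones.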

Additional observations from a re-analysis of the deposited data

How the results depend on the processing

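Each of the 10 genes kept the sign of its log2 fold change under all alternatives run except KDM1A, RCOR1 and SMARCA4, whose values were near 0. Without single libraries KDM1A ranged from -0.0030 to 0.26, RCOR1 from -0.18 to 0.064 and SMARCA4 from -0.28 to 0.10. With library size alone, which moved the median of all genes by 0.15, RCOR1 was 0.084 and SMARCA4 0.076, and TGIF1 and RPS19BP1 were 0.043 and 0.034. On log2 of TPM plus 1, filtered or not, which moved that median by 0.24 and 0.21, RCOR1 was 0.20, SMARCA4 0.15, TGIF1 0.18, RPS19BP1 0.13, NAMPT 0.077, SMAD2 0.075 and REV1 0.040. On TPM plus 0.1 the values were 0.21 (RCOR1), 0.16 (SMARCA4), 0.19 (TGIF1), 0.13 (RPS19BP1), 0.079 (NAMPT), 0.079 (SMAD2) and 0.044 (REV1). Signs also turned without single libraries for ACTL6A (-0.052 to 0.26), NAMPT (-0.77 to 0.027), RPS19BP1 (-0.39 to 0.11), SMARCE1 (-0.029 to 0.13), TGIF1 (-0.26 to 0.12) and USP22 (-0.097 to 0.28). The cause was not tested.

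ZEB1 passed the threshold with no filter (-2.43), DESeq2 (-2.41), the likelihood ratio test (-2.43) and TPM plus 1 (-1.76). Without single libraries it ranged from -3.27 to -2.14, passing only without ZEB1-KO replicate 3. CTBP2 passed with DESeq2 (-1.01) and the likelihood ratio test (-1.02). The share of ZEB1 left in ZEB1-KO replicate 3 was 40.7% on the TPM scale.

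All genes called numbered 24, against 134 with no filter, 935 with DESeq2, 617 with the likelihood ratio test, 101 with TPM plus 1, 94 with TPM plus 0.1, 80 with TPM plus 1 and no filter, and 5 to 25 without single libraries (5 without WT replicate 3, 6 without WT replicate 2 or ZEB1-KO replicate 1, and 13 without WT replicate 1). Calls among CtBP partners and among ZEB1 partners went from 0 to 1 with DESeq2 and with the likelihood ratio test. Calls among SWI/SNF subunits went to 1 with DESeq2, and those among acetyltransferases to 2 with DESeq2 and 1 with the likelihood ratio test. Among ZEB1 targets the 0 calls became 7 with DESeq2, 4 with the likelihood ratio test, 3 with no filter and with each of the 3 TPM fits, 1 with library size alone, 1 with limma-voom and 0 to 1 without single libraries (1 without WT replicate 2).

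Replicate numbers shared by the 2 groups showed no clear pairing of the clones, and deviations from means of 3 clones cannot exclude one. Deviations from the group means of same-numbered clones correlated by 0.022, 0.0071 and 0.22, and not every clone correlated best with its own number. The value for number 3 was the highest of all pairs, before 0.10 for WT replicate 1 with ZEB1-KO replicate 2. With the replicate number as a block 20 genes were called, ZEB1 had a log2 fold change of -2.69 (adjusted p = 0.0876) and CTBP2 one of -1.02 (adjusted p = 0.141), and no call among the 10 genes or the lists changed.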
